A study of Caenorhabditis elegans with 2 samples.

Results

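The 500 strongest peaks of eGFP-MAB-5 on the X chromosome of Caenorhabditis elegans embryos are described here. They were selected on a measured value: of the 5518 X peaks in the pooled relaxed list (30000 peaks in all), these had the highest signal value, the authors' own measure of enrichment in the chromatin immunoprecipitation. Embryos of strain OP27, which carries unc-119(ed3) III and the wgIs27 transgene for tagged MAB-5, were collected at mixed stages from animals of both sexes. The labels give 2 biological replicates of this 1 group and state no age, so no condition is compared. The labels name mab-5 as the antibody target and the eGFP fusion as the precipitated protein. The sources used here do not name the promoter of the fusion, and whole embryos were used, so that strong binding in few cells and weak binding in many cannot be told apart. A peak list holds no measure of expression, so the embryonic source could not be checked by marker genes.

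MAB-5 is an Antennapedia-type Hox protein that gives posterior cells of the worm their identity and steers the migration of neuroblasts along the body. Like other Hox proteins it contacts DNA through a homeodomain and, together with a PBC-type cofactor, recognises the composite site TGATNNAT. The X chromosome of C. elegans is the one that the dosage compensation complex, which contains a condensin, coats in hermaphrodites to lower its transcription. That complex is loaded at recruitment sites marked by clustered copies of a 12-base motif called MEX, which has the core GCGCAGGG preceded by TC and followed by AG.

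The 7 sequences shown here come from the strongest X peaks. They are the 6 strongest peaks and the strongest 4 that held TGATNNAT, with 3 peaks in both sets. Each spans the summit and 100 bases on either side, on the plus strand of WBcel235 (the assembly called ce11) as given by RefSeq. Capitals mark every site that matched at least 10 of the 12 letters of MEX on either strand, and every TGATNNAT, which reads ATNNATCA on the other strand.
X member 1, chrX:8036313-8036513, nearest start xol-1: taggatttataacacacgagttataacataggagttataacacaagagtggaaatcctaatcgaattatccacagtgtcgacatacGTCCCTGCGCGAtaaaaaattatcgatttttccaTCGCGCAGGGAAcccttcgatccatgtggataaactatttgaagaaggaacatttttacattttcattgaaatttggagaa
X member 2, chrX:13700774-13700974, nearest start K02D3.1: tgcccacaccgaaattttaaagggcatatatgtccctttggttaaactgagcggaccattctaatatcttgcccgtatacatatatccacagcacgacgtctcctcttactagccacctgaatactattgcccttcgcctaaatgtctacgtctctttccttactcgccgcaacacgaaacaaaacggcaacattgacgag
X member 3, chrX:2996973-2997173, nearest start Y41G9A.17: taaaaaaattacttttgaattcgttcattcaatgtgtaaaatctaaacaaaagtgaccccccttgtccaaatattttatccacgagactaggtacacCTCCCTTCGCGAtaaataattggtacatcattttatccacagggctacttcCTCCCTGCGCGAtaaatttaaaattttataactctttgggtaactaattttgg
X member 4, chrX:16682020-16682220, nearest start F22H10.2: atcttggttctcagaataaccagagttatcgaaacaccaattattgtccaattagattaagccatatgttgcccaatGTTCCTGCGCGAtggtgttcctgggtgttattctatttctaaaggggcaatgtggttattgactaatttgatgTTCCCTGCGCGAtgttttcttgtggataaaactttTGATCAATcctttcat
X member 5, chrX:11937431-11937631, nearest start F55G7.5: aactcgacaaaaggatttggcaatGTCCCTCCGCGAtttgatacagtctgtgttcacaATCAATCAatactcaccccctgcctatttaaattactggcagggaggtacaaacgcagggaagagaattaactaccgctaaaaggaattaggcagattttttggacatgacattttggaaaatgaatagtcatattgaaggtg
X member 6, chrX:11094084-11094284, nearest start W02H3.3: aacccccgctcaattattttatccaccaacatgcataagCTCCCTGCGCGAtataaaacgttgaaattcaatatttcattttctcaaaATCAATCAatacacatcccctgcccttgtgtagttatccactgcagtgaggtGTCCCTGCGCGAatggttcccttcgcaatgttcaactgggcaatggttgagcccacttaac
X member 11, chrX:13328988-13329188, nearest start sir-2.2: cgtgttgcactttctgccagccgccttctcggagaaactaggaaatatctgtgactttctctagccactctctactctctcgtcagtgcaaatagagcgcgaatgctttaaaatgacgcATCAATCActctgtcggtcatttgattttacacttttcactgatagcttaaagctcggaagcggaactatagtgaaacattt

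Of the 7, 4 held 2 marked MEX sites each, 1 held 1 such site and 2 held none. Both sites of the strongest peak, 4900 bp upstream of the start of xol-1, matched 11 of 12 letters. The peaks at ranks 3 and 6 held a site with all 12 letters. TGATNNAT and MEX stood within 100 bp of the same summit at ranks 4, 5 and 6, whereas the peaks at ranks 2 and 11 had a best MEX match of 7 letters.

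The signal value of the 500 peaks ran from 19.2 to 123, with a median of 23.6, against a median of 11.1 over all X peaks. These values chose the peaks and are given as a description. The sources used here do not state their scale, and the read depth is unknown. At the limit, the peak at rank 500 (19.1701, nearest to the syntaxin gene syx-2) and that at rank 501 (19.1672, nearest to F57G12.1) were almost equal. The members at ranks 498 and 499 had 19.1769 (F52B10.3) and 19.1746 (ptp-4A2), and the peaks at ranks 502 and 503 had 19.1622 (near abl-1, the Abl tyrosine kinase gene) and 19.1559 (near sym-4). On all nuclear chromosomes, 2708 of 29978 pooled peaks reached the value of the weakest member. The authors' thresholded list, which holds the peaks that passed their reproducibility test, contained 76 of the 500 (15.2%), and these were its only X peaks (1.38% of all 5518). It contained 16.2% of the 2500 peaks obtained by taking the 500 strongest of each autosome. The interval was 340 bp wide in 491 peaks, and all 9 narrower ones were among the 20 strongest.

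**Figure D1:**
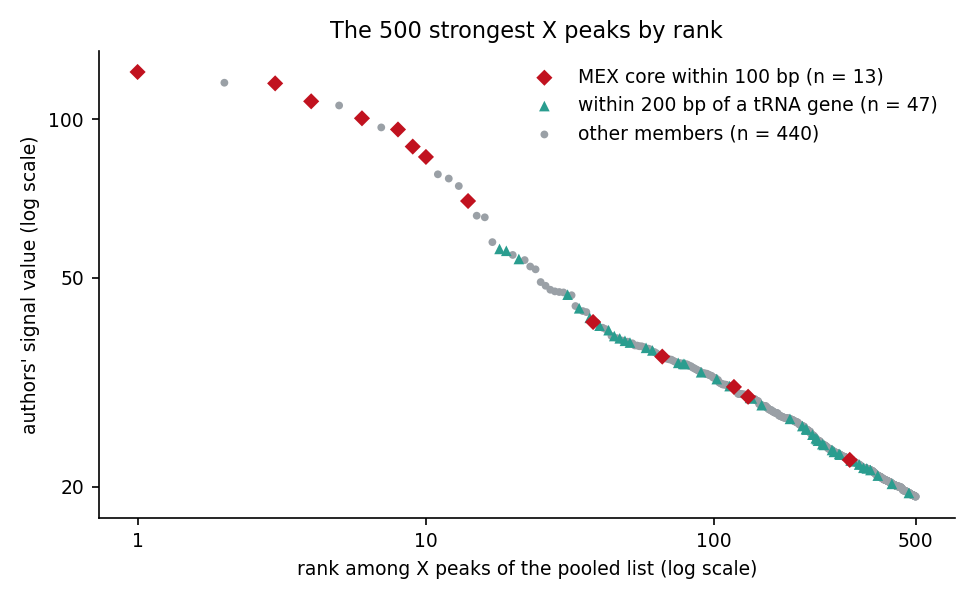
Signal value (log scale) of the 500 strongest X peaks against their rank on X (log scale), with 13 peaks that held the MEX core within 100 bp of the summit as diamonds and the other peaks within 200 bp of a tRNA gene as triangles. Of the 13 diamonds, 8 stand among the 14 strongest peaks and none below rank 295, while triangles first appear at rank 18.

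The replicates shared the strongest X peaks and parted towards the limit. A peak was counted as present in a replicate where its summit fell inside a peak of that replicate's own relaxed list of 30000. Replicate 1 covered 77.2% of the 500 peaks (386), against 40.7% of all X peaks, and replicate 2 covered 94.6% (473), against 60.3% of all X peaks. Both covered 72.6% (363; exact 95% interval 68.5 to 76.5%), against 19.1% of all X peaks. Because the authors pooled these 2 replicates to make the list the peaks were taken from, presence is no independent check. Replicate 2 alone covered 110 peaks, replicate 1 alone 23 and neither 4. In steps of 100 ranks from the top, the share in both replicates was 95%, 82%, 70%, 65% and 51%.

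Ranks within the replicate lists were less alike. Among the 500 strongest X peaks of replicate 1's own list were 202 of the 500 pooled ones, among those of replicate 2 there were 301, and 109 were in both sets. Where both covered a peak, the signal value of replicate 2 was a median 1.79 times that of replicate 1, and the scales of the lists were not compared further. The shares in gene start windows and intergenic sequence, with TGATNNAT or the MEX core and beside tRNA genes are therefore also given for each replicate's own 500 strongest X peaks. Flank shares, distance bins, counts of MEX sites along X, dense stretches and gene lists below rest on the pooled list.

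The top of the X list lay mostly away from gene starts. The strongest peak (chrX:8036303-8036480, signal value 123) was intergenic and nearest to xol-1, the master switch gene of sex determination, and ranked 10 in replicate 1 and 33 in replicate 2. A second summit, at rank 40 with a signal value of 40.5, lay 4697 bp upstream of the same start. Rank 2 (chrX:13700792-13700936, 117) was 6033 bp upstream of K02D3.1, and rank 3 (chrX:2996950-2997223, 117) lay in an intron of Y41G9A.17. These 3 peaks were among the 100 strongest of all 30000 peaks in both replicates.

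Ranks 4 to 8 had signal values of 108, 106, 100.5, 96.5 and 95.7 and were intergenic, nearest to F22H10.2, F55G7.5, W02H3.3, ZK899.6 and gtr-1. Their distances from those starts were 2580, 1395, 4002, 2503 and 3932 bp downstream. Rank 9 (chrX:14525806-14525918, 88.8) and rank 10 (chrX:4209077-4209416, 84.8) lay 693 bp upstream of nspc-17, a gene of a nematode-specific peptide family, and 1762 bp upstream of F20B6.9. They were the first in a gene start window, which reached from 2000 bp before to 500 bp past a protein-coding start.

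Rank 11 (78.6) lay in an intron of the sirtuin gene sir-2.2, rank 12 (77.2) was 5854 bp from C30E1.4, and rank 13 (74.7) was 1034 bp downstream of T27A8.7. The summit at rank 14 (69.9) fell in an intron of mom-1, a Porcupine gene needed to make active Wnt, although the start of cest-16 was nearer. In all, 12 of the 14 strongest peaks were outside every gene start window, a grouping chosen after the values were seen.

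The next 6 peaks stood partly at gene starts. Rank 15 (65.6) was in the 5′ UTR of igcm-4, a gene of the immunoglobulin-like cell adhesion family, and rank 17 (58.4) was 1004 bp upstream of the F-box gene fbxb-58. Rank 19 (56.2) lay 1195 bp upstream of ets-5, an ETS transcription factor gene. The others were 5663 bp from lite-1, the gene of a light-sensing receptor (rank 16, 65.1), and in introns of sulp-3, a sulfate permease family gene (rank 18, 56.7), and coel-1, a gene of the tubulin cofactor E-like family (rank 20, 55.2). All 20 were present in both replicates, and their ranks there ran from 10 to 645 in replicate 1 and from 18 to 292 in replicate 2.

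MEX cores were found at these strong X summits and rarely at equally ranked autosomal ones. The core GCGCAGGG occurred on either strand within 100 bp of 13 of the 500 X summits (2.60%, exact 95% interval 1.39 to 4.41%). It occurred at 2 of the 2500 summits obtained by taking the 500 strongest peaks of each of the 5 autosomes (0.08%, exact 95% interval 0.00969 to 0.289%). Over all X peaks the share was 0.399% (22 of 5518), and over all autosomal peaks of the pooled list 0.0327% (8 of 24460). Of all X tiles of the same length as the searched window, 0.0851% held the core, against 0.0553% of autosomal tiles. Of the flanks centred 500 bp to the left and right of the 500 X summits, 1 and 3 held it. The difference between X and the autosomes was not tested.

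Cores were concentrated at the top ranks of X. They marked 7 of the 10 strongest X peaks, 8 of the 20 strongest and 10 of the 100 strongest. On the autosomes, 0 of the 10 strongest of any chromosome held one, and 1 of the 20 strongest did on chromosome III (chrIII:10989486-10989825, signal value 85.0, 1783 bp upstream of col-94). The other autosomal case was 3666 bp upstream of unc-60 on V, with a signal value of 29.2. Each replicate's own list gave similar numbers, with 7 of the 10 strongest and 8 of the 20 strongest X peaks in replicate 1, and 6 of 10 and 8 of 20 in replicate 2. Both lists had 12 cores among their 500 strongest X peaks.

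**Figure D2:**
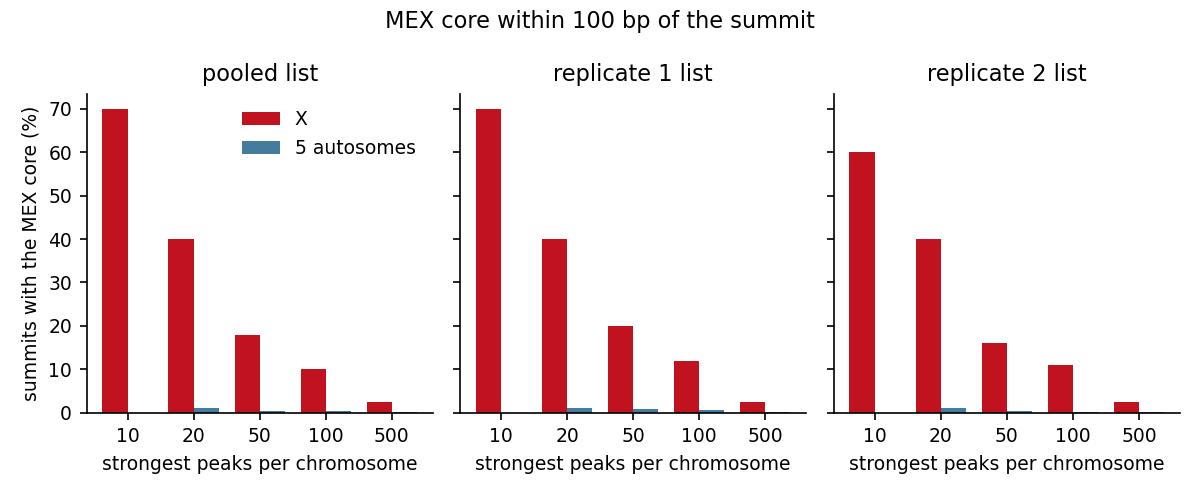
Share of summits (%) with the MEX core within 100 bp among the 10, 20, 50, 100 and 500 strongest peaks of X (red, left bars) and of the 5 autosomes together (blue, right bars; each chromosome contributes the same number), in the pooled list and in each replicate's own list. The X bars fall from 7 of 10 to 13 of 500 in the pooled list, and in each of the 3 lists every X bar is higher than the autosomal bar beside it.

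The 13 X peaks with a core had a median signal value of 84.8, against 23.5 in the other 487, and all 13 were present in both replicates. After the 8 peaks at ranks 1, 3, 4, 6, 8, 9, 10 and 14 they continued with rank 38 (41.2), 578 bp upstream of ins-39, an insulin-like gene. Rank 66 (35.4) was nearest to B0302.2, and rank 117 (31.0) lay 3441 bp upstream of the collagen gene col-185. The remaining cores were at rank 131 (29.7), in an intron 289 bp downstream of the start of the FGF gene egl-17, and at rank 295 (22.5), at the start of apm-3, the gene of an AP-3 adaptor subunit. The last 3 ranked far lower in replicate 1, at 8336, 18999 and 18001, than in replicate 2, at 527, 387 and 3517. Of the 13, 5 lay in a gene start window (38.5%), near the 43.2% of all 500 peaks and the 36.9% of all X peaks.

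Near matches to the 12 letters were counted in an extension chosen after the values were seen. The 12 letters include the core, so these counts partly repeat those above and are no independent check. At least 11 of the 12 MEX letters were found at 11 of the 500 X summits, 9 of them among the 20 strongest, and at 0 of the 2500 autosomal summits (upper bound of the exact 95% interval 0.147%). With 10 letters the counts were 17 on X, 11 of them among the 20 strongest, and 11 on the autosomes (0.44%). Of all tiles, 0.299% on X and 0.314% on the autosomes held a site with at least 10 letters. The X sequence held 32 sites with 11 or more letters, or 1.81 per Mb, and the autosomes 37, or 0.448 per Mb. Of the 32 X sites, 15 lay within 100 bp of one of the 500 summits, 13 of these at the 20 strongest, and 18 lay at any pooled X peak. Of the 37 autosomal sites, 0 lay at the 2500 summits and 3 at any pooled autosomal peak. Of the 3 sites on X with all 12 letters, 2 were at ranks 3 and 6.

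TGATNNAT, the composite Hox site, was present within 100 bp of 113 of the 500 X summits (22.6%, exact 95% interval 19 to 26.5%). It was present in 15.9% of the flanks 500 bp away, in 15.8% of all X tiles and at 17% of all X peaks. At the 2500 autosomal summits the share was 18.7%, from 17.4% on III to 21.2% on I, with 15.3% in their flanks. Among the 20 strongest X peaks, 8 held the site (40%), and among ranks 21 to 100 it was 22.5%. On chromosomes I to V, the 20 strongest peaks gave 7, 5, 2, 6 and 8. The 20 strongest X peaks of each replicate's own list gave 6 in replicate 1 and 7 in replicate 2. The 113 X peaks with TGATNNAT had a median signal value of 23.9, against 23.5 in the 376 with neither it nor a MEX core. Summits outside gene start windows held TGATNNAT in 25% of cases and those inside in 19.4%. Each replicate's own 500 strongest X peaks gave 20.4% in replicate 1 and 22.4% in replicate 2.

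The narrower form TGATTNAT was at 9.40% of the X summits, against 5.60% of their flanks and 5.81% of X tiles. It was at 7.30% of all X peaks and 9.56% of the autosomal summits. The homeodomain core TAATNA was less frequent at the summits (40.4%) than in the flanks and in X tiles (45% each). All X peaks held it at 50.7%, and the autosomal summits at 39.2%. Among motifs of other factors, the E-box CAGCTG stood at 8.0% of summits, against 3.4% of flanks, and the E-box CACGTG at 3.4%, against 2.9%. For CAGCTG the share was 3.90% over all X peaks and 5.64% at the autosomal summits. The GATA site TGATAA was at 17.2% of summits and 19.8% of flanks. GAGAGAGA stood at 6.20% of X summits, against 1.40% of flanks and 8.32% of the autosomal summits. A match is a run of letters and no measured site, each motif was searched on both strands, and these differences were not tested. The TGATTNAT sites are also TGATNNAT sites.

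Base composition moved with rank as well. The median GC content within 100 bp was 38.3% at the 500 X summits, against 32.8% over all X peaks and 36.8% at the autosomal summits. In successive steps of 100 ranks it was 43.3%, 40.8%, 38.6%, 35.3% and 35.3%. Its part in the motif shares was not tested.

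As a group, the 500 X peaks were at gene starts less often than the strongest peaks of any autosome. A gene start window held 216 of the 500 X summits (43.2%, exact 95% interval 38.8 to 47.7%), against 36.9% of all X peaks. The 500 strongest peaks of each autosome gave 58.9% ± 3.67 (SD, n = 5 chromosomes), with a range from 53.8% on IV to 63.4% on II. Windows cover 33.9% of the bases of X and 41.2% of those of the autosomes, and X has 154 protein-coding genes per Mb against 209. Each replicate's own lists gave 45.6% on X and 54.6% on the autosomes in replicate 1, and 44% and 56.9% in replicate 2. Summits in the windows of 2 or more genes made up 5.40% on X and 23.4% on the autosomes. The median distance to the nearest start was 1654.5 bp at the X peaks, 1876.5 bp over all X peaks and 882 bp at the autosomal peaks.

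**Figure D3:**
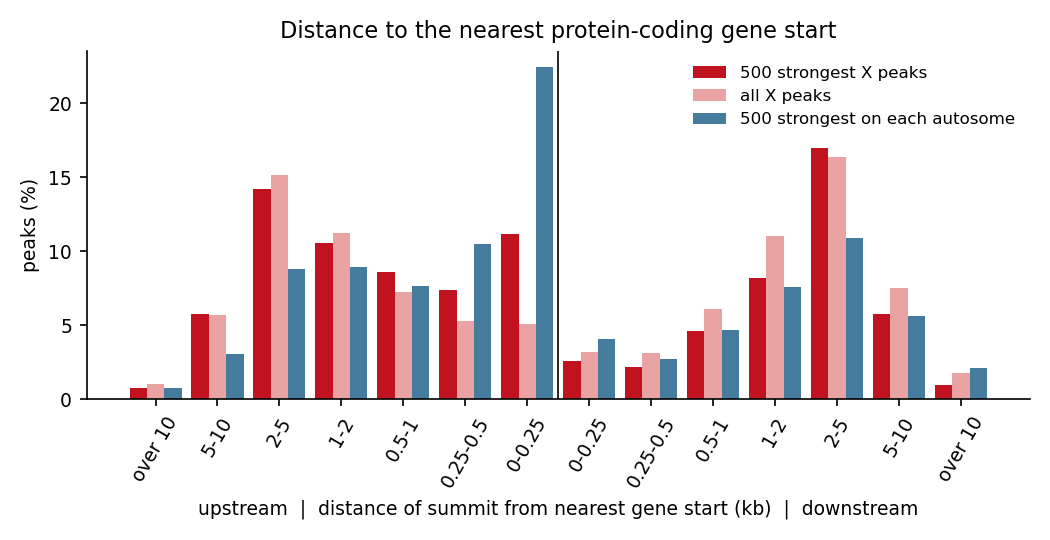
Share of peaks (%) by distance of the summit from the nearest protein-coding gene start, in kb, upstream to the left and downstream to the right of the line, for the 500 strongest X peaks (red), all X peaks (pink) and the 500 strongest peaks of each autosome (blue). Within 0.25 kb upstream of a start the autosomal bar is the highest at 22.4%, against 11.2% for the 500 X peaks, and from 2 to 5 kb on either side both X bars are above the autosomal one.

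Intergenic sequence held 320 of the 500 X summits (64%, exact 95% interval 59.6 to 68.2%) and 44.5% of the bases of X. It held 51.3% of all X peaks. At the autosomal summits the share was 59.7%, from 57.8% on I to 63.4% on IV, against 35.8% of autosomal bases. Introns held 145 (29%, against 30.7% of bases), 3′ UTRs 14, 5′ UTRs 11 and coding exons 10 (2.0%, against 19.97% of bases). Over all X peaks, coding exons held 8.84% of summits, and at the autosomal summits 4.16%. Intergenic summits outside every gene start window made up 28.2% on X and 15.3% on the autosomes. Over all X peaks and all autosomal peaks of the pooled list the shares were 25.4% and 17.1%. Of the X summits, 58.6% were upstream of the nearest start, and 67 (13.4%) were more than 5000 bp from any. In each replicate's own list the intergenic share of the 500 strongest X peaks was 60.2% in replicate 1 and 60% in replicate 2. None of these differences was tested.

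**Figure D4:**
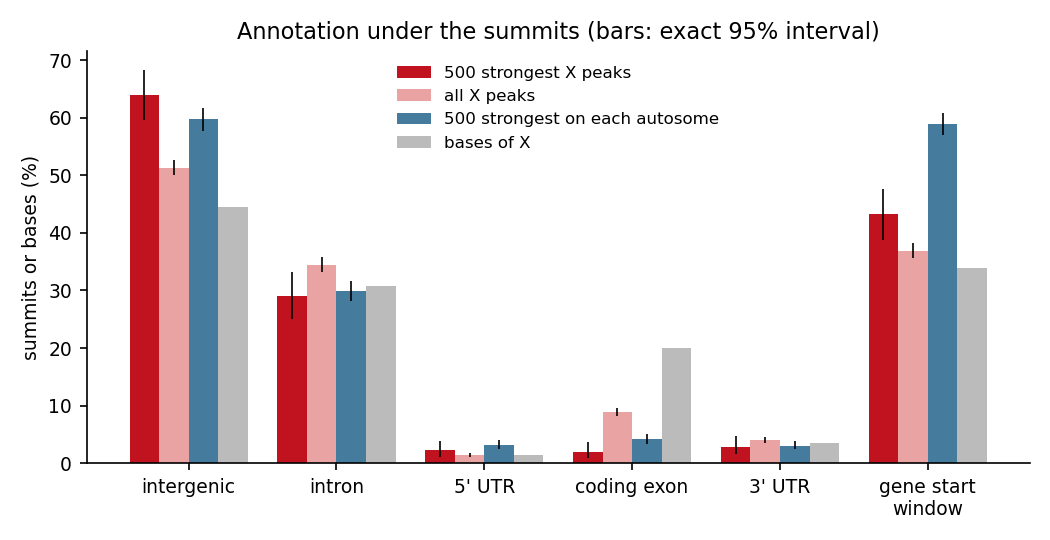
Share of summits (%) in each annotated feature and in gene start windows for the 500 strongest X peaks (red), all X peaks (pink) and the 500 strongest peaks of each autosome (blue), with exact 95% binomial intervals, beside the share of X bases (grey). The red bar is above the grey one for intergenic sequence, 5′ UTRs and gene start windows. It is below the grey one for introns, 3′ UTRs and coding exons, the last at 2.0% against 19.97%. For introns and both kinds of UTR the interval of the red bar includes the grey value.

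The peaks were spread along the whole chromosome. Cut into 10 stretches of equal length, X held 40, 63, 52, 51, 39, 52, 50, 54, 50 and 49 of them from left to right. Cut into 3, its leftmost stretch held 171 (34.2%), and it also held 34.2% of all X peaks. Neighbouring summits were a median 20578 bp apart, from 199 to 246864 bp, and 28.2 peaks fell in each Mb. Overlapping intervals joined the 500 peaks into 489. Of 177 windows of 100 kb, 14 held none.

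The densest stretch of 100 kb, chrX:1051185-1122600 from first to last summit, held 12 of the 500 peaks among 45 X peaks, near ncs-3, unc-1 and pfn-3. Their signal values ran from 20.6 to 44.2. Another 10 lay at chrX:10555588-10630484, around syd-2, bet-2, sdn-1 and abl-1, and 10 each around F57G12.1 and from syx-2 to dyc-1. Among single genes, the start of F57G12.1 was nearest to 5 of the peaks, the most of any gene. The starts of ftt-2, a 14-3-3 protein gene, and sma-9, a Schnurri-type zinc finger gene of body size signalling, were nearest to 4 each. The sma-9 peaks had signal values of 52.5, 31.1, 20.7 and 20.02, and 2 of them were intronic. Next by number, hst-3.2, ldb-1 and 8 other genes had 3 each.

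**Figure D5:**
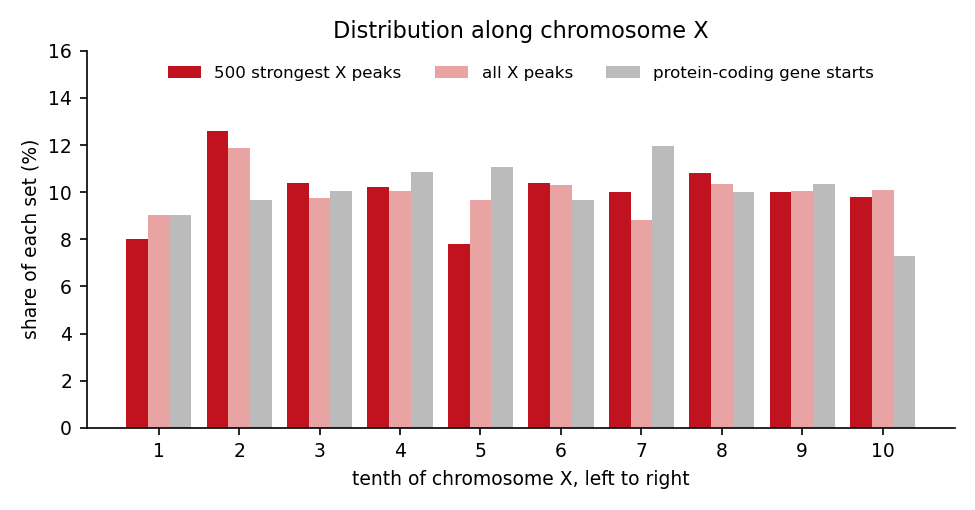
Share (%) of the 500 strongest X peaks (red), all X peaks (pink) and protein-coding gene starts of X (grey) in each of 10 stretches of equal length from left to right. The red bars lie between 7.8% in the fifth stretch and 12.6% in the second.

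Peaks beside tRNA genes made up 48 of the 500 (9.60%, exact 95% interval 7.16 to 12.5%, summit within 200 bp of the gene), a class added after the values were seen. Over all X peaks the share was 1.99%, and at the 2500 autosomal summits 1.48%, with 0.8 to 2.0% per autosome. X carries 276 of the 612 nuclear tRNA genes, and 54 of these (19.6%) were within 200 bp of one of the 500 peaks. On the autosomes, 40 of 336 (11.9%) were within 200 bp of one of the 2500, with 6.06 to 17.5% per autosome. The flanks 500 bp to the left and right of the X summits gave 6 and 3.

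These 48 peaks had a median signal value of 27.8, against 23.3 in the other 452, and 18 were among the 100 strongest. The strongest were rank 18 in sulp-3, 35 bp from the tRNA gene F41D9.t3, and rank 19 upstream of ets-5, 26 bp from C42D8.t1. Rank 21 (54.3) stood 246 bp upstream of sor-3 and 37 bp from C04E7.t1. Both replicates covered 41 of the 48. They had a median GC content of 45.3%, and 3 held TGATNNAT (6.25%) and 1 a MEX core. In the replicates' own lists of 500 the share beside tRNA genes was 6.20% in replicate 1 and 7.80% in replicate 2. Genes of tRNAs exist in near-identical copies, and the sources used here do not say how reads that match several copies were treated.

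No peak of the 500 had its summit within 200 bp of a microRNA gene, of which X carries 74. Over all X peaks 12 did (0.217%), so that a count of 0 in 500 is near the share of all X peaks. Rank 143 (28.7) lay 1888 bp upstream of let-7, the heterochronic microRNA gene. Rank 291 (22.6) was 358 bp upstream of mir-54 and close to mir-55 and mir-56, and rank 73 (34.6) was 996 bp downstream of the start of mir-62.

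In gene terms, 231 of the 2731 protein-coding genes of X had one of the 500 summits in their start window (8.46%), and 14 had 2. Any X peak in the window was found for 1547 genes. The summits lay inside 149 genes and were nearest to 405. Gene groups are given below by count, beside this 8.46%. The lists are small, each interval is wide, and none was tested.

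X signal elements count X chromosomes, and dosage compensation genes build or load the compensation complex. Of a list of these genes that also held xol-1 and tra-4, 1 of 7 had a summit at its start (with an exact 95% interval of 0.361 to 57.9%). This was ceh-39, a ONECUT homeobox gene and X signal element, with a signal value of 25.5 at 383 bp upstream. The other X signal elements had their closest member summits farther off, at 7951 bp upstream of fox-1, an RNA-binding protein gene, and 5098 bp upstream of sex-1, a nuclear receptor gene. Weaker X peaks stood in both windows, with signal values up to 8.40 and 11.9. For xol-1, the target of these elements, the window held 2 weaker peaks, up to 14.4. The window of tra-4, a zinc finger gene of sexual fate, likewise held 2, up to 9.04. The closest member summits to sdc-1 and sdc-2, whose products load the complex, were 56370 and 26411 bp downstream of their starts, and no X peak of the pooled list stood in either window.

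Among transcription factors, 2 of 25 homeobox genes had a summit in their window, ceh-39 and the POU gene ceh-18 (20.99, 1005 bp upstream). Of 29 other developmental transcription factor genes 5 did (17.2%, exact 95% interval 5.85 to 35.8%). They were led by ets-5 (56.2, 1195 bp upstream), whose summit also stood beside a tRNA gene. Next were the Smad gene daf-3 (30.4, 165 bp upstream), the heterochronic gene lin-14 (29.5, 1970 bp upstream) and mdl-1, a Mad-type gene (23.2, 108 bp upstream). The daf-3 and mdl-1 peaks ranked 15034 and 19635 in replicate 1, and 700 and 1034 in replicate 2. Nuclear hormone receptor genes had 4 of 23, nhr-32, nhr-1, nhr-255 and nhr-48, at 27.05, 25.8, 24.5 and 21.7. The list of basic helix-loop-helix genes, which did not include mdl-1, had 0 of 6 (upper bound 45.9%).

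Genes of guidance and cell migration numbered 17 and had 6 with a summit at their start (35.3%, with an exact 95% interval of 14.2 to 61.7%). The strongest were syg-2, a nephrin-type adhesion gene (37.0, 1336 bp upstream), slt-1, the Slit ligand gene (33.3, 333 bp upstream), egl-17 (29.7) and unc-115, an actin-binding LIM protein gene (22.4, 292 bp upstream). In replicate 1 the syg-2 peak ranked 575, while the slt-1, egl-17 and unc-115 peaks ranked 19942, 18999 and 15273. Replicate 2 placed syg-2, slt-1 and egl-17 at 751, 550 and 387 and did not cover the unc-115 summit. Wnt pathway genes had 2 of 4, mom-1 (43.7, 752 bp upstream and also in the window of the nearer gene lev-9) and vang-1, the Van Gogh gene (19.5, 514 bp upstream).

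Muscle structural genes had 5 of 15 (33.3%, exact 95% interval 11.8 to 61.6%). The strongest were the troponin T gene tnt-2 (33.9, 540 bp upstream), unc-97, a LIM domain gene of muscle attachments (31.6, 1187 bp upstream), mlc-1, a myosin light chain gene (25.5, 523 bp upstream), and dim-1 (22.9, 1311 bp upstream). The tnt-2 peak ranked 207 in replicate 1 and 9050 in replicate 2, the mlc-1 summit was covered by replicate 2 alone, and the dim-1 summit by neither. The summit at dim-1 also lay in the window of C18A11.3. Synaptic and excitability genes had 2 of 24, the innexin gene unc-7 (40.2, 1365 bp upstream) and the liprin gene syd-2 (26.2, 349 bp upstream).

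Epidermal, cuticle and heterochronic genes had 2 of 15, lin-14 and lon-2, a glypican gene (20.3, 844 bp upstream). Collagen genes had 1 of 27, col-185 (23.5), and neuropeptide and insulin-like genes 2 of 37, ins-39 (41.2) and nlp-76 (36.4). Chemoreceptor genes, taken by symbol, had 2 of 37, srd-43 (46.4) and srg-64 (24.5, in a window shared with the nearer nhr-255). F-box and C-type lectin genes had 2 of 20, fbxb-58 (58.4) and fbxa-141 (31.4). Ribosomal protein genes had 0 of 2 and histone genes 0 of 5.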

How the data were processed

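The authors called peaks on each of 2 replicates with a control alignment and on the pooled replicates, per the file descriptions, and derived a thresholded list by the irreproducible discovery rate. The sources used here name no peak caller or aligner, and the control library is not analysed here. The signal value is the authors' deposited measure. It ranked peaks within a list and has no error or depth, so exact 95% binomial intervals over peaks or genes cover counting error only. Ties were broken by position. The summit is the interval's start plus the deposited summit offset.

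The ce11 lists were placed on the WBcel235 genome of RefSeq, whose X ends at 17718942, as does the last X peak, and on gene models of Ensembl release 115. Symbols came from RefSeq by locus and were found for 99.9% of X protein-coding genes. Feature classes use protein-coding genes. Motif searches covered both strands and 100 bp either side of each summit. The same steps were run on all X peaks, the 500 strongest peaks of each autosome and each replicate's own 500 strongest X peaks.

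The 500 peaks, gene lists, motifs and the rule for named genes were chosen with earlier results of these data known. That rule took the nearest start for the 20 strongest peaks and for 3 peaks on either side of the limit, the 5 genes that were nearest to most peaks (2 of 10 tied genes are named), each X signal element and up to 4 genes of every other list. The microRNA and tRNA genes, the genes of the densest stretches, sor-3, and B0302.2, apm-3, col-94 and unc-60 beside MEX cores were chosen after their values were seen. Printed sequences span 100 bases either side of the summit, more than the planned window, since sites lay outside that. No test was run, since 1 group has no comparison and the signal value chose the peaks. Location and motif functions were tested on simulated positions. Alternatives were other windows, list sizes, overlaps and the ce10 list. Tools were pandas 2.3.3, scipy 1.17.1 and numpy 2.4.6 under Python 3.11.15.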

Additional observations from a re-analysis of the deposited data

How the results depend on the processing

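Of 77 values of 13 results under alternatives, 50 stayed close to the main value and 27 moved. A share was close when it stayed in its exact 95% interval, a median when it moved by less than the SD of the 2 replicate lists, and a count when it stayed within 1.5 times. The interval for shares was chosen after the values were seen, because the SD of the 2 replicate lists was 0 for some shares. With gene windows of 1000 bp upstream only, 27.6% of the X summits and 142 genes were counted, and with 5000 bp upstream to 1000 bp downstream 68.2% and 444 genes. The 250 strongest X peaks touched 126 genes and the 1000 strongest 443. Those 250 were covered by replicate 1, replicate 2 and both in 87.6%, 98.4% and 86% of cases, and those 1000 in 65.1%, 89.3% and 56.6%. Requiring one of a replicate's 500 strongest X peaks gave 40.4%, 60.2% and 21.8%. With genes of every biotype, 41.6% of summits lay inside a gene. TGATNNAT within 50 bp was at 12.6%. The median GC content was 41% for the 250 strongest, 35.8% for the 1000 strongest and 39.1% within 50 bp. The MEX core stood at 4.80% of the 250 strongest. For tRNA genes, the share was 13.6% of the 250 strongest, 5.90% of the 1000 strongest and 2.20% with the summit inside the gene. The MEX and tRNA alternatives were chosen after seeing the data.

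With one replicate's list in place of the pooled one, the median distance ran from 1529 to 1686.5 bp, against 1654.5 bp in the pooled list. The median GC content ran from 36.8% to 37.8%, against 38.3%. The tRNA share ran from 6.20% to 7.80%, below the pooled 9.60% in both replicates. Of these, 1529 bp, 36.8% and 6.20% were among the values that moved. The start window share ran from 44% to 45.6%, the intergenic share from 60% to 60.2%, the share inside genes from 39.8% to 40%, and TGATNNAT from 20.4% to 22.4%. The MEX core share was 2.40% in both lists, the share in the leftmost stretch of 3 was 33.2% in both, and the genes numbered 249 and 250. On the ce10 list the leftmost stretch of 3 held 33.6%. No paired analysis was possible because there is 1 group. Read depth is unknown, so the effect of counting error of reads on these values could not be assessed.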
